A study of Mus musculus with 6 samples.

Results

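The clustered histone genes are the replication-dependent genes that encode the linker histone H1 and the core histones H2A, H2B, H3 and H4. They were chosen by name, as every gene on the array whose deposited name begins with Hist1h, Hist2h, Hist3h or Hist4h, with 1 probe kept for each gene, the one with the highest mean over the 6 arrays. This gave 47 genes with 51 probes, out of 29862 named genes and 55681 probes. By type there were 6 H1, 14 H2a, 11 H2b, 8 H3 and 8 H4 genes. By cluster there were 34 genes of Hist1 on chromosome 13, 9 of Hist2 on chromosome 3, 3 of Hist3 on chromosome 11 and 1 of Hist4 on chromosome 6. By their deposited names 2 of the 47 are pseudogenes, though Hist2h3c2-ps now has the symbol H3c15, which does not mark it as one.

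A nucleosome wraps DNA around a core built from an H3-H4 tetramer and H2A-H2B dimers, and H1 binds where the DNA enters and leaves it. Cells make these proteins while they copy their DNA, so transcripts of the clustered genes are abundant in S phase and are degraded when it ends. Most of these transcripts end in a stem-loop bound by SLBP and carry no poly(A) tail, while some of the genes also give polyadenylated transcripts in cells that have stopped dividing. The newborn liver holds hepatocytes that still divide and, as a remnant of the fetal blood-forming organ, erythroblasts that divide as they mature. The labelling kit named in the labels starts complementary DNA synthesis from an oligo(dT) primer. A transcript without a tail lacks the stretch that this primer binds. An array signal of these genes is therefore no direct measure of the amount of their stem-loop transcripts.

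Livers of 3 Cugbp1 knockout mice and 3 wild-type mice were taken at an age of 3 days, and the total RNA of each was labelled with Cy3 and measured on 1 array. Cugbp1, now named Celf1, encodes CELF1, an RNA-binding protein that recognises GU-rich stretches and takes part in splicing and in the decay of its targets. How the allele was made, the strain and the litters are not given in the sources used here, and p-values measure only the spread between these samples, which may be technical. The labels call the mice male.

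Celf1 itself had log2 signals of 9.02, 8.61 and 8.94 on the knockout arrays and 12.04, 11.84 and 11.78 on the wild-type arrays. All 3 knockout arrays were below all 3 wild-type arrays. Knockout minus wild-type was -3.03 ± 0.22 (SE), a signal 8.15-fold lower. The adjusted p by limma was 0.0555, and the probe's position relative to the deleted part is not known here. All 13 hepatocyte markers on the array were detected. Xist, an RNA of the inactive X chromosome, was at 2.10, 10.12 and 10.20 in knockout and 1.75, 10.05 and 10.82 in wild-type livers, and the Y-linked Ddx3y at 10.67, 1.09 and 1.27 in knockout and 10.66, 1.71 and 1.88 in wild-type livers. The livers numbered 2 and 3 of both genotypes therefore went against the label male, and sex was the same within each number. In pancreas signal knockout 2 stood apart from the other arrays. Of 18 exocrine pancreas markers 13 were tested. Their median relative to the wild-type mean was 6.40 on knockout 2, against 0.26 on knockout 1 and 0.54 on knockout 3. It was -0.22 to 0.33 on the wild-type arrays. The 15 tested skeletal muscle markers had medians of -1.77, 2.46 and 5.43 on the knockout arrays and -1.71, -1.20 and 2.91 on the wild-type arrays, relative to the wild-type mean. In muscle signal knockout 3 stood apart, as the highest array for each of the 15. The histone results are given with and without knockout 2. Leaving it out did not remove the muscle signal, whose median difference was then 2.20.

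The start regions of the histone genes hold short motifs known from histone promoters, and 6 are shown because the genes they precede carry the contrasts described further on. RefSeq start regions on GRCm38.p6 were matched for 41 of the 47 genes, which have 42 annotated starts, and each searched window ran from 250 bases before the start to 50 after it. The first pair are H1 genes, Hist1h1b and Hist1h1c, with the AC box AAACACA of H1 promoters in capitals. The next, Hist2h2bb, has the octamer ATTTGCAT, a site bound by OCT1, in capitals. The last 3, Hist3h2ba, Hist2h2aa1 and Hist2h2aa2, have the CCAAT box in capitals, which reads ATTGG where it lies on the other strand. Each line gives the 250 bases before the start, read along the gene's strand.
Hist1h1b (now H1f5), chr13:21780626-21780875, minus strand: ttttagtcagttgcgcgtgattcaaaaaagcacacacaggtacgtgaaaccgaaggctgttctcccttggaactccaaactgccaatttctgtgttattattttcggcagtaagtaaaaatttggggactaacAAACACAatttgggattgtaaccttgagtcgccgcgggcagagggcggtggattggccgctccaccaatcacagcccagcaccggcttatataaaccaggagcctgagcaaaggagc
Hist1h1c (now H1f2), chr13:23738557-23738806, plus strand: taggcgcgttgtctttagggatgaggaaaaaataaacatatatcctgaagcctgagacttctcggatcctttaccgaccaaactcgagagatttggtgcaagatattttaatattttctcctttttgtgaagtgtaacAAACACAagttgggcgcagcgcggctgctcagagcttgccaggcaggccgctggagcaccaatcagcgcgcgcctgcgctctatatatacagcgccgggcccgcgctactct
Hist2h2bb (now H2bc18), chr3:96269450-96269699, plus strand: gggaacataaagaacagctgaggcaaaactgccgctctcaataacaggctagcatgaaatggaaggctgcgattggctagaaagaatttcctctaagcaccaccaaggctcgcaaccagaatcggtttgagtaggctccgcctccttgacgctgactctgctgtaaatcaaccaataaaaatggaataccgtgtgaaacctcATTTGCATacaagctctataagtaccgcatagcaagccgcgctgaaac
Hist3h2ba (now H2bu2), chr11:58948661-58948910, plus strand: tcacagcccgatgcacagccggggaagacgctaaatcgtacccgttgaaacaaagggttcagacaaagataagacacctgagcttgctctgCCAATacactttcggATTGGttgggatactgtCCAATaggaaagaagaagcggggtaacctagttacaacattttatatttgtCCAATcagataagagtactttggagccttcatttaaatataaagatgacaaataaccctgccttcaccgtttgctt
Hist2h2aa1 (now H2ac18), chr3:96245247-96245496, plus strand: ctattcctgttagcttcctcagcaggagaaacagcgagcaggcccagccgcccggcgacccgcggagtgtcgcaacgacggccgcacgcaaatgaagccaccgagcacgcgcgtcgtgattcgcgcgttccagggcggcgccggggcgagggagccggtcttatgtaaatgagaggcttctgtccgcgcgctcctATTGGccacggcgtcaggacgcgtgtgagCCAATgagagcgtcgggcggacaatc
Hist2h2aa2 (now H2ac19), chr3:96240375-96240624, minus strand: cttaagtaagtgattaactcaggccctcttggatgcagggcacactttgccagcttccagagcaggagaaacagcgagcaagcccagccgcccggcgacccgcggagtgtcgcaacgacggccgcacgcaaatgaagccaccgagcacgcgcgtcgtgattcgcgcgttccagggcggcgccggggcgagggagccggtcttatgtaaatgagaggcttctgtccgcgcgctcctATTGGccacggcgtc

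Searched on both strands, the octamer was in 13 of the 42 windows of the histone genes, or 31.0%, against 1.74% of all 32851 windows of the same length. It was in 7 of 14 H2a windows, each time on the minus strand, and in 6 of 9 H2b windows, each time on the plus strand. It was in 0 windows of H1, H3 and H4 genes. Many H2a and H2b genes lie head to head and share the stretch between them, so 1 octamer can be counted for both. The AC box was in 5 of 6 H1 windows, 112 to 122 bases before the start, in 2 of 14 H2a and 2 of 9 H2b windows, in 0 H3 and H4 windows, and in 7.18% of all windows. CCAAT was in 37 of the 42 windows (88.1%, against 37.4% of all windows), in every window of the H1, H2a, H2b and H3 genes and in 2 of 7 H4 windows. The letters of the TATA box, TATAAA, were in 25 windows (59.5%, against 13.6% of all), counted at any position and on either strand. On the plus strand they lay 26 to 33 bases before the start in H1 windows. In H3 windows they lay 147 to 168 bases before it, and in Hist2h2aa1 they lay 11 bases after it. The start regions of Hist2h2aa1 and Hist2h2aa2 are near copies: shifted by 40 bases, they were identical at 199 of 210 bases, or 94.8%. A match is a description of the sequence, and no binding was measured here.

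No clustered histone gene passed the test between knockout and wild-type livers. Of the 47 genes 46 were tested, 0 passed adjusted p 0.05 by limma, and 1 had an unadjusted p under 0.05; over all 30924 features tested, 0.00323% passed the adjusted threshold and 2.98% the unadjusted one. The genotypes' arrays did not separate for any of the 46, while 6.71% of all features had groups that did not overlap, 3.53% with knockout above and 3.18% with knockout below. In 38 of the 46 the knockout mean was the lower, in 8 the higher, and 50.4% of all features were lower. The median difference, knockout minus wild-type, was -0.21 on the log2 scale (range -0.98 to 0.51, with SEs of 0.23 to 1.21), against -0.0024 over all features tested. Without knockout 2 the sign of the median turned: it was 0.20, with 34 genes higher and 12 lower, against 0.023 and 53% higher over all features. It was -0.53 without knockout 1, -0.36 without knockout 3 and -0.33 without wild-type 2, and it was 0.054, with 21 genes lower, when arrays were weighted in limma by how well they fit their group. By cluster, 26 of 33 tested Hist1 genes were lower in knockout, with a median of -0.17, or 0.21 without knockout 2. All 9 Hist2 genes were lower, with a median of -0.25, or 0.12 without knockout 2, and 2 of 3 Hist3 genes, with a median of -0.53, or 0.56 without knockout 2.

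Seen array by array, the 3 knockout livers did not lie together. The median of the 46 genes relative to the wild-type mean was 0.48 on knockout 1, -1.23 on knockout 2 and -0.02 on knockout 3. The wild-type arrays had medians of 0.06, -0.17 and 0.14. Knockout 1 was thus above and knockout 2 below all 3 wild-type arrays, and knockout 3 lay among them. Knockout 2 was the lowest of the 6 arrays in 40 of 46 genes, against 24.1% of all features, and the highest in 0, against 20.8% of all features. Knockout 1 was the highest in 28 of 46, against 25.4% of all features, and knockout 3 in 3, against 10.3%. In 31 of the 46, knockout 2 was at least 2-fold below the wild-type mean, against 6.96% of all features, and the median gene was 2.34-fold below. By number, the median difference was 0.48 within pair 1, the pair without Xist signal, -0.96 within pair 2 and -0.15 within pair 3, with 5, 44 and 28 of the 46 genes lower in the knockout.

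**Figure D1:**
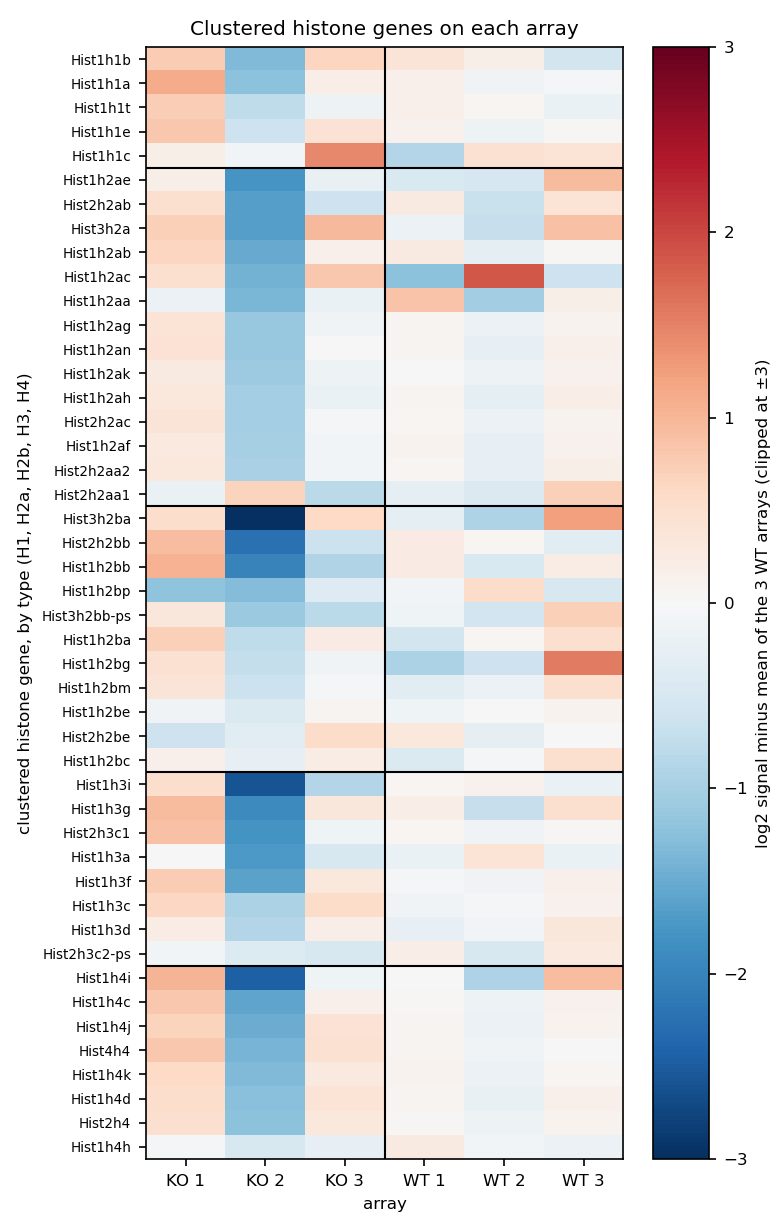
Log2 signal of the 46 tested clustered histone genes (rows, grouped by type) on the 6 arrays (columns, knockout left of wild-type), relative to the mean of the 3 wild-type arrays and clipped at 3. The column of knockout 2 is the lowest of the 6 in 40 rows, and Hist2h2aa1 is the one row above the wild-type mean there.

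**Figure D2:**
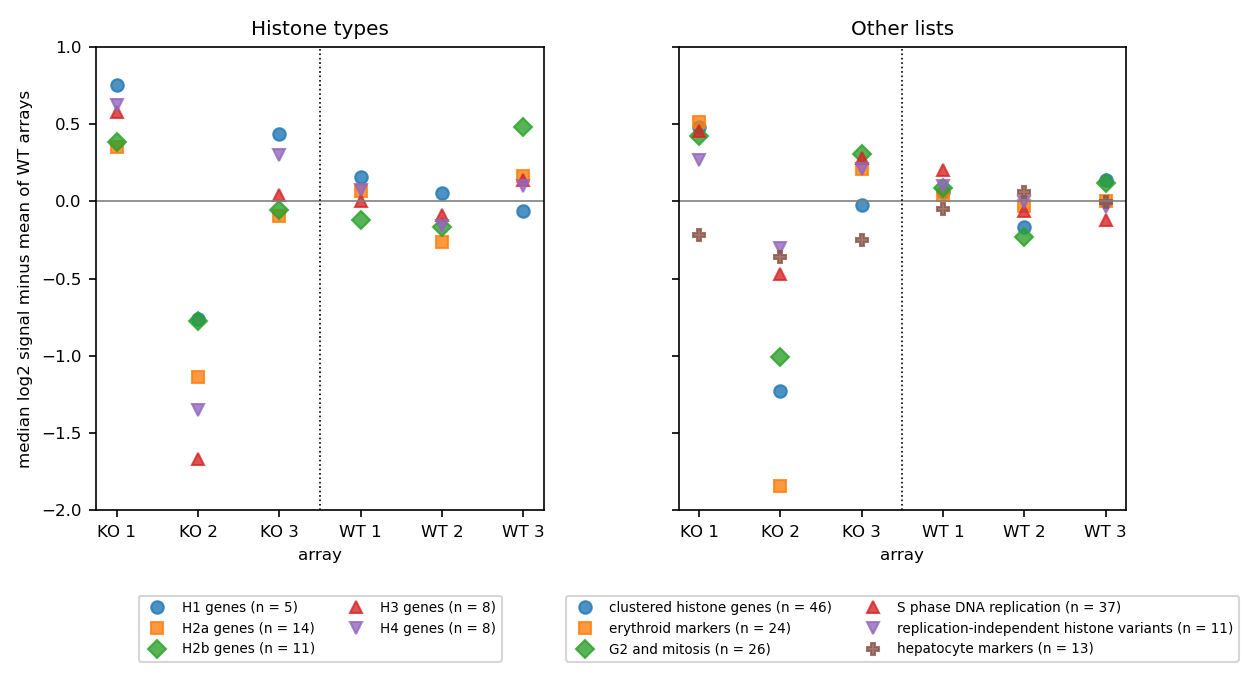
Median log2 signal relative to the wild-type mean on each array, for the 5 histone types (left panel) and for all clustered histone genes beside other gene lists (right panel), with 1 point per list and array and n as the genes tested. On knockout 2 the 5 types lie between -0.76 and -1.67, and the erythroid markers at -1.84.

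The H1 genes encode the linker histones, and Hist1h1a to Hist1h1e are the somatic forms. Their median difference was 0.03 with all arrays and 0.65 without knockout 2, with 4 of 5 tested genes higher in knockout and 1 lower. Relative to the wild-type mean their medians were 0.75, -0.76 and 0.43 on knockout 1, 2 and 3. Hist1h1b (H1.5) had log2 signals of 14.38, 12.31 and 14.27 in knockout livers and 14.02, 13.80 and 13.08 in wild-type livers. Knockout 1 and 3 were above every wild-type array and knockout 2 below every one. Hist1h1a (H1.1) had the same order, with 10.85, 8.52 and 9.94 in knockout and 9.90, 9.65 and 9.68 in wild-type livers, and so did Hist1h1e (H1.4), with 14.77, 13.34 and 14.40 in knockout and 14.08, 13.81 and 13.99 in wild-type livers. With all arrays Hist1h1a differed by 0.03 ± 0.56 (SE), Hist1h1b by 0.03 ± 0.59 and Hist1h1e by 0.21 ± 0.38. Without knockout 2 their differences were 0.65, 0.70 and 0.62. Hist1h1c (H1.2), a somatic H1 with a polyadenylated transcript, had 13.12, 12.86 and 14.39 in knockout livers and 12.07, 13.39 and 13.36 in wild-type livers. Here wild-type 1 was the lowest array and not knockout 2. Hist1h1b and Hist1h1c differed in the order of the arrays, and both start regions hold the AC box. The window of Hist1h1a, which had the order of Hist1h1b, holds none. Whether the motif bears on the order was not tested. Hist1h1c differed by 0.51 ± 0.53 (SE), the highest of the 46, and by 0.81 without knockout 2. Hist1h1t, the H1 of the testis, had 7.06, 5.55 and 6.17 in knockout and 6.47, 6.37 and 6.10 in wild-type livers, a difference of -0.05 ± 0.40 (SE), or 0.30 without knockout 2. Hist1h1d (H1.3) was not tested, since its probe was not detected on knockout 1 and wild-type 1, so neither genotype had it on all 3 arrays. It read 2.64, 2.98 and 5.26 in knockout and 2.00, 4.44 and 4.19 in wild-type livers.

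The H2a genes encode the core histone H2A. Their median difference was -0.25 with all arrays and 0.11 without knockout 2, with 13 of 14 lower in knockout. On knockout 1, 2 and 3 their medians were 0.35, -1.14 and -0.10 relative to the wild-type mean, and 12 of the 14 were at least 2-fold below it on knockout 2. Hist2h2aa2 had 17.93, 16.62 and 17.51 in knockout livers and 17.66, 17.36 and 17.78 in wild-type livers. Its near copy Hist2h2aa1 had 14.19, 15.08 and 13.60 in knockout livers and 14.10, 13.97 and 15.12 in wild-type livers. The order of the arrays was not shared between them: knockout 2 was the lowest array for Hist2h2aa2, while for Hist2h2aa1 it lay beside wild-type 3 at the top and knockout 3 was the lowest. Hist2h2aa1 was the only one of the 46 genes above the wild-type mean on knockout 2, by 0.68. Their differences were -0.25 ± 0.36 (SE) for Hist2h2aa2 and -0.11 ± 0.47 for Hist2h2aa1, and without knockout 2 they were 0.12 and -0.50. H2a coding sequences are nearly identical, so a probe may take up transcripts of other H2a genes, and the probe sequences were not used here. Hist1h2ag, a bright example, had 18.25, 16.69 and 17.73 in knockout livers and 17.91, 17.65 and 17.95 in wild-type livers, with the arrays in the same order as for Hist2h2aa2. The raw signal of the H2a probes reached 300560, on wild-type 3, and flags of saturated spots were not used here.

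Some of the other H2a genes had dimmer and more scattered signals. Hist1h2ac read 5.96, 4.05 and 6.28 in knockout livers and 4.25, 7.33 and 4.86 in wild-type livers. Its wild-type arrays alone spanned more than the difference between genotypes, which was -0.05 ± 0.92 (SE), or 0.64 without knockout 2. The H2a genes with the smallest unadjusted p were Hist1h2aa, which encodes a testis-specific H2A, at -0.58 ± 0.56, Hist2h2ab at -0.60 ± 0.57, Hist1h2ae at -0.61 ± 0.62 and Hist1h2ak at -0.32 ± 0.37 (SE). Without knockout 2 these 4 differences were -0.18, -0.06, -0.02 and 0.06. Of these 4, Hist1h2ak was bright, with 18.13, 16.77 and 17.70 in knockout and 17.87, 17.71 and 17.98 in wild-type livers. For Hist3h2a the values were 12.50, 10.12 and 12.76 in knockout livers and 11.61, 11.08 and 12.64 in wild-type livers. Its means differed by 0.01 ± 0.76 (SE), and by 0.85 without knockout 2, the lowest array.

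The H2b genes encode H2B, the partner of H2A in the dimer. Their median difference was -0.15 with all arrays and 0.14 without knockout 2, with 9 of 11 lower in knockout, and knockout 2 was at least 2-fold below the wild-type mean for 5 of the 11. Hist3h2ba had log2 signals of 11.54, 7.33 and 11.61 in knockout livers and 10.71, 10.09 and 12.24 in wild-type livers. Knockout 2 was 12.8-fold below the wild-type mean, further than for any other of the 46 genes, while knockout 1 and 3 lay within the wild-type range. Hist3h2ba therefore had both the highest SE of the 46, with a difference of -0.85 ± 1.21, and a difference of 0.56 without knockout 2. Its neighbour in the Hist3 cluster, Hist3h2a, had its lowest value on the same array. Hist2h2bb, whose start region with an octamer is shown above, had 12.75, 9.57 and 11.18 in knockout livers and 12.08, 11.88 and 11.51 in wild-type livers. Knockout 1 was its highest array, knockout 2 its lowest, and knockout 3 the next lowest, with a difference of -0.66 ± 0.74 (SE), or 0.14 without knockout 2.

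Hist1h2bp had the lowest unadjusted p of the 46 genes. It had 6.28, 6.20 and 7.12 in knockout livers and 7.42, 8.05 and 7.03 in wild-type livers. The groups overlapped, since knockout 3 was above wild-type 3. The difference was -0.97 ± 0.37 (SE) with unadjusted p = 0.0376 and adjusted p = 0.999994 by limma, and it was -0.80 without knockout 2. Hist1h2ba, which encodes a testis-specific H2B, read 13.66, 12.17 and 13.18 in knockout livers and 12.38, 13.01 and 13.43 in wild-type livers, a difference of 0.06 ± 0.45 (SE), or 0.48 without knockout 2. Of 12 germ cell markers 6 were tested, with a median difference of -0.09 and log2 signals from 2.22 to 6.81. The Hist1h2ba probe was brighter than all of these, and whether it takes up transcripts of other H2b genes was not tested. The pseudogene Hist3h2bb-ps was dim, at 4.205, 2.74 and 3.07 in knockout and 3.74, 3.28 and 4.57 in wild-type livers, and differed by -0.53 ± 0.49 (SE), or -0.23 without knockout 2. It was detected on 5 arrays, all but knockout 2, and entered the test through the wild-type group.

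The H3 genes encode H3, which carries many of the marks by which chromatin is read. They had a median difference of -0.26 with all arrays and 0.29 without knockout 2, with 7 of 8 lower in knockout. Their medians were 0.58, -1.67 and 0.04 on knockout 1, 2 and 3, the lowest on knockout 2 among the 5 types. Hist1h3i had 10.19, 7.08 and 8.79 in knockout livers and 9.72, 9.80 and 9.47 in wild-type livers. Knockout 2 was 5.98-fold below the wild-type mean, and knockout 3 was also below all wild-type arrays while knockout 1 was above them. The difference was -0.98 ± 0.72 (SE), the lowest of the 46, and -0.17 without knockout 2. Hist1h3g had 9.77, 6.91 and 9.15 in knockout and 9.02, 8.13 and 9.29 in wild-type livers. Its knockout 2 was again the lowest array, and the difference was -0.20 ± 0.75 (SE), or 0.65 without it. Hist1h3a differed by -0.74 ± 0.47 (SE), or -0.24 without knockout 2, with 8.16, 6.44 and 7.67 in knockout and 7.96, 8.57 and 7.95 in wild-type livers. For Hist1h3c the values were 12.07, 10.50 and 11.99 in knockout and 11.34, 11.41 and 11.57 in wild-type livers, with knockout 1 and 3 above the wild-type range and knockout 2 below it. Of the remaining named members, Hist2h3c1 differed by -0.35 ± 0.63 (SE) and Hist2h3c2-ps (now H3c15) by -0.33 ± 0.28, or 0.37 and -0.28 without knockout 2.

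The H4 genes encode H4, and their products are identical in sequence for most of the genes. All 8 were lower in the knockout mean, with a median difference of -0.14, and 7 of 8 were higher without knockout 2, with a median of 0.45. Their medians on knockout 1, 2 and 3 were 0.63, -1.35 and 0.30, and 7 of 8 were at least 2-fold below the wild-type mean on knockout 2. Hist1h4k had 16.73, 14.82 and 16.42 in knockout livers and 16.24, 15.97 and 16.21 in wild-type livers. Hist4h4, the only gene of the Hist4 cluster, had 14.23, 12.03 and 13.87 in knockout livers and 13.51, 13.33 and 13.43 in wild-type livers. In both genes knockout 1 and 3 were above every wild-type array and knockout 2 was below every one. Hist1h4k differed by -0.15 ± 0.50 (SE) and Hist4h4 by -0.05 ± 0.56, or 0.44 and 0.63 without knockout 2. That order was found in 11 of the 46 histone genes, 6 of them H4, 3 H1 and 2 H3, and in 4.07% of all features. It was not particular to histone genes. Of other lists described below, 14 of 26 genes of G2 and mitosis and 14 of 37 S phase replication genes had it. So did 12 of 24 erythroid markers, and 0 of 13 hepatocyte markers. Hist2h4 read almost as Hist1h4k did, at 16.58, 14.86 and 16.41 in knockout and 16.13, 15.95 and 16.19 in wild-type livers. A probe may take up transcripts of other H4 genes, so these genes may not be separate readings. Probe sequences were not used here. Hist1h4i differed by -0.53 ± 0.91 (SE), with 11.92, 8.44 and 10.76 in knockout and 10.89, 9.98 and 11.84 in wild-type livers, while its further probe, with the lower mean, differed by 0.0080. Without knockout 2 the probe kept for Hist1h4i differed by 0.44. The further probe of Hist2h4 differed by -0.90, against -0.14 for the probe kept, that of Hist1h4k by -0.14 against -0.15, and that of Hist1h2ak by -0.26 against -0.32. On each of these 4 further probes knockout 2 was the lowest array. Hist1h4c differed by -0.21 ± 0.58 and Hist1h4h by -0.26 ± 0.24 (SE), or 0.47 and -0.14 without knockout 2.

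**Figure D3:**
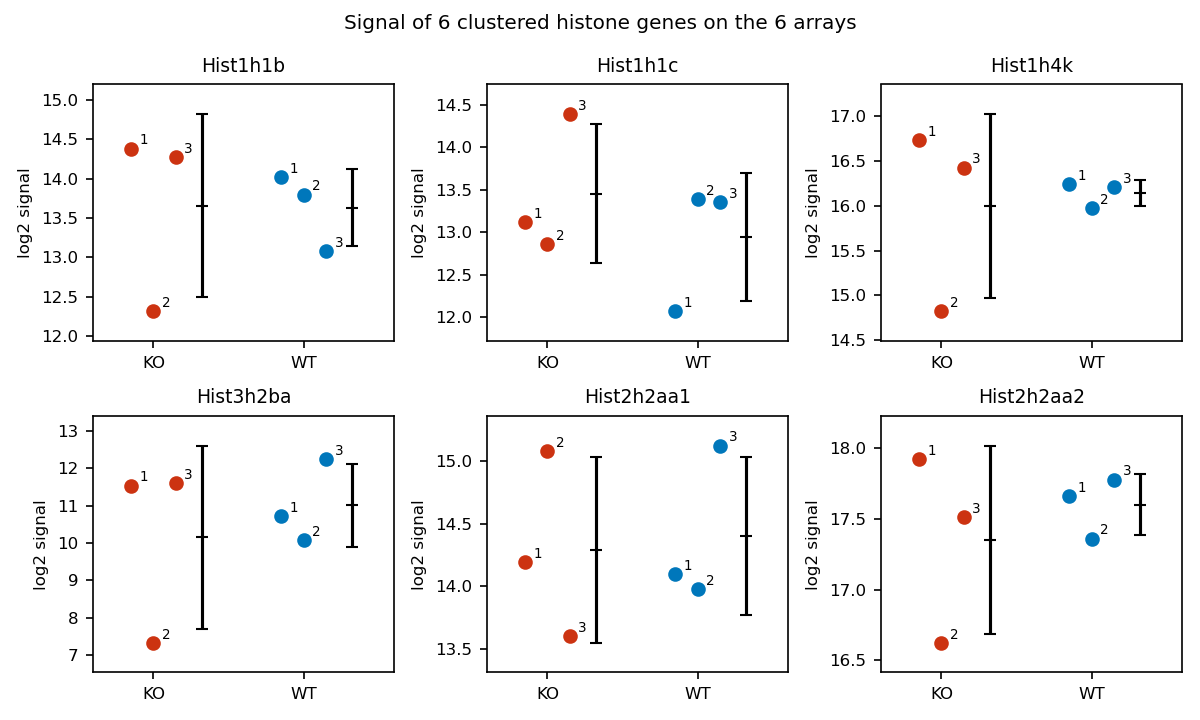
Log2 signal of 6 clustered histone genes, with 1 point per array numbered by replicate, knockout left of wild-type, and a bar for the mean and SD of 3 arrays beside the points. Knockout 2 is the lowest array for Hist1h1b, Hist1h4k, Hist3h2ba and Hist2h2aa2 but not for Hist1h1c or Hist2h2aa1. Each panel has its own vertical axis, which does not start at 0.

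Among the histone genes, those described with a polyadenylated transcript in mouse or human had a wider spread on knockout 2. There are 10 of them on the array, Hist1h1c, Hist1h2ac, Hist1h2bc, Hist1h2be, Hist1h2bg, Hist2h2aa1, Hist2h2be, Hist3h2a, Hist3h2ba and Hist4h4. Knockout 2 was the lowest array for 5 of these 10, against 35 of the other 36 tested genes, and its median relative to the wild-type mean was -0.57 in the 10 and -1.23 in the 36. Its range in the 10 was wide, with Hist3h2ba at -3.68 and Hist2h2aa1 at 0.68. Hist1h2bc had 15.27, 14.84 and 15.32 in knockout and 14.67, 15.04 and 15.59 in wild-type livers, and Hist2h2be had 7.33, 7.65 and 8.50 in knockout and 8.26, 7.66 and 7.95 in wild-type livers. In neither was knockout 2 at the bottom. Hist1h2be, with 7.21, 6.89 and 7.40 in knockout and 7.20, 7.34 and 7.42 in wild-type livers, was lowest on knockout 2 by a small margin and differed by -0.15 ± 0.23 (SE), the lowest SE of the 46, or -0.01 without knockout 2. Hist1h2bg had 6.15, 4.98 and 5.60 in knockout and 4.76, 5.08 and 7.26 in wild-type livers. Without knockout 2 the median difference was 0.38 in the 10 and 0.19 in the 36. The list was written with earlier results of these arrays known, and the split was not tested.

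**Figure D4:**
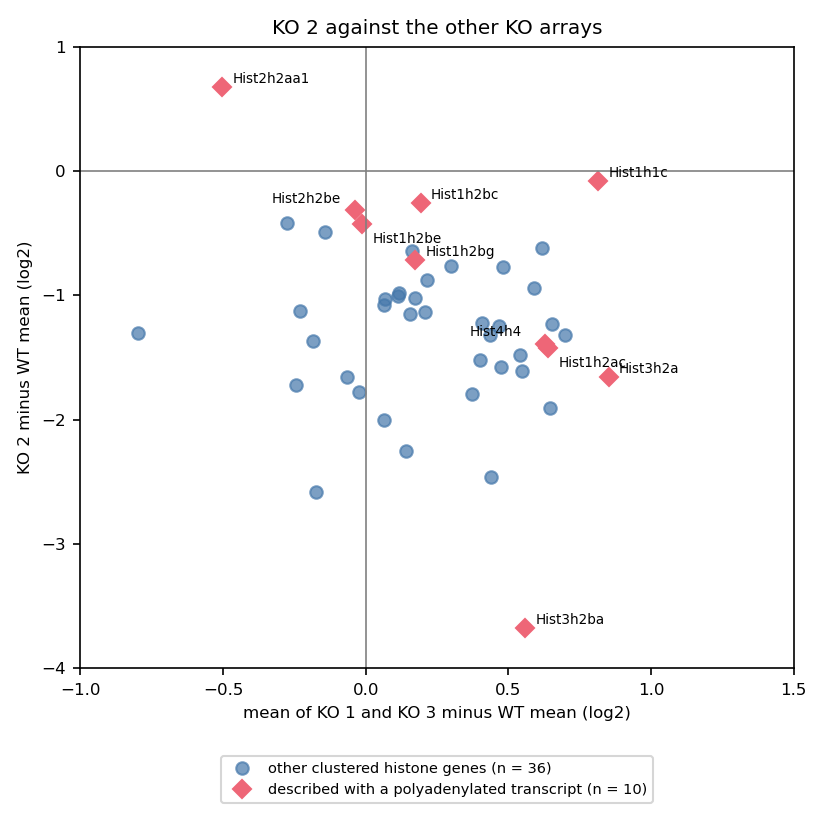
Each point is 1 of the 46 tested clustered histone genes, with the mean of knockout 1 and 3 minus the wild-type mean on the horizontal axis and knockout 2 minus the wild-type mean on the vertical axis, both log2. Diamonds, the 10 genes described with a polyadenylated transcript, run from 0.68 (Hist2h2aa1) to -3.68 (Hist3h2ba) on the vertical axis, and the other 36 genes from -0.42 to -2.58.

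Other genes of the histone pathway had medians nearer to the wild-type mean on knockout 2, a description that was not tested. Of these lists 0 members passed the test. Of 11 variant histone genes listed as replication-independent, most of which are used outside S phase and give transcripts with a poly(A) tail (H2ax also gives a stem-loop transcript), 9 were higher and 2 lower in knockout, with a median difference of 0.08, or 0.18 without knockout 2. Their medians on knockout 1, 2 and 3 were 0.27, -0.30 and 0.21. The variants with the smallest unadjusted p were the linker histone H1f10 at 0.78 ± 0.39 (SE), the H3.3 gene H3f3a at 0.48 ± 0.36 and the centromeric H3 gene Cenpa at -0.26 ± 0.29. Without knockout 2 these were 1.19, 0.87 and -0.10. Of 18 tested genes for transcription, 3' processing and turnover of histone transcripts, 7 were higher and 11 lower, with a median of -0.04, or 0.02 without knockout 2. Slbp, the stem-loop binding protein gene, differed by -0.19 ± 0.34 (SE), Cpsf3, the endonuclease of 3' processing, by 0.39 ± 0.26, Casp8ap2 by -0.27 ± 0.25 and Lsm10 by -0.21 ± 0.19. Without knockout 2 Slbp turned sign, to 0.14, Cpsf3 was at 0.22, Casp8ap2 at -0.21 and Lsm10 at -0.20. Npat, the activator of histone gene transcription, was not tested. Of 19 chaperones and nucleosome assembly factors, 10 were higher and 9 lower, with a median of 0.00082, or 0.12 without knockout 2, and Chaf1b, Supt16 and Ubn1 differed by 0.31 ± 0.36, 0.21 ± 0.24 and -0.22 ± 0.23 (SE), or 0.56, 0.37 and -0.07 without knockout 2.

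Gene lists of dividing cells and of erythroblasts were also below the wild-type mean on knockout 2 and above it on knockout 1, and 0 of their members passed the test. The 37 S phase replication genes had medians of 0.45, -0.47 and 0.28 on knockout 1, 2 and 3, and their median difference was 0.08, or 0.32 without knockout 2. The 26 genes of G2 and mitosis had medians of 0.42, -1.01 and 0.31, with a difference of -0.07, or 0.35 without knockout 2. The 24 erythroid markers had 0.52, -1.84 and 0.21, with a difference of -0.39, or 0.34 without knockout 2. Knockout 2 was the lowest array for 24 of the 37 S phase genes. It was also the lowest for 24 of the 26 genes of G2 and mitosis and 21 of the 24 erythroid markers. In all 3 lists knockout 1 had the highest and knockout 2 the lowest of the 6 array medians, as in the histone genes. The knockout order 1, 3, 2 from high to low was not particular to them. The 13 hepatocyte markers had it too, at -0.22, -0.36 and -0.25 on knockout 1, 2 and 3. So did the 14 granulocyte markers, at -0.10, -0.34 and -0.20, the histone variants, and the genes of histone transcript processing, at 0.09, -0.15 and -0.07. The chaperones, at 0.17, -0.18 and 0.20, did not have it. Nor did the 14 B cell progenitor markers, at -0.04, -0.29 and 0.07, or the 12 megakaryocyte and platelet markers, at -0.62, -0.16 and -0.10. It was also absent from the muscle and pancreas markers given above. From the lists of dividing cells, Pttg1, the securin gene, differed by -0.62 ± 0.24 (SE), Nusap1 by -0.65 ± 0.64, Nek2 by 0.24 ± 0.28, Orc1 by -0.54 ± 0.37, Ung by -0.36 ± 0.24 and Dut by 0.34 ± 0.30, each with adjusted p = 0.999994 by limma. Without knockout 2 Pttg1 was at -0.65, Nusap1, with its sign turned, at 0.08, Nek2 at 0.50, Orc1 at -0.14, Ung at -0.51 and Dut at 0.48. In whole liver RNA, fewer cells of a type and less RNA per cell cannot be told apart. What part the erythroid, pancreas and muscle signals have in the histone values was not tested.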

How the data were processed

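Linear intensity values of 55681 probes on the 6 arrays were deposited by the authors in 1 table, with 91 empty cells. They came from Agilent Feature Extraction, per the submitters' processing notes; its version is not given there. The scanner column behind the intensity, flags of background and saturation, and slides or scan times are not given in the sources used here. A second table that the authors deposited is on the log2 scale. Quantile normalization of the intensities, log2 and centring of each probe on its median gave it back; at the lowest, on knockout 3, 99.9586% of values were equal within 0.01. Its column medians were 0.001, -0.011 and -0.011 for knockout 1 to 3 and 0.005, 0.001 and 0.004 for wild-type 1 to 3.

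Each array's intensities were scaled to a common 75th percentile (350.2, 534.8 and 489.6 before scaling in knockout, 410.5, 443.9 and 396.8 in wild-type), given a floor of 1 and taken to log2. Signals above their array's 30th percentile counted as detected, and a feature needed detection on all 3 arrays of either genotype to be tested. One probe was kept per gene, the one with the highest mean; probes without a name stayed by themselves. A current symbol was carried by 27364 probes, an updated one by 3601, a name kept as given by 7530 and none by 17186. The genotypes were compared with limma 3.58.1 in R 4.3.3 (lmFit, eBayes, two-sided, no covariates) and Benjamini-Hochberg adjustment over 30924 features, at a threshold of 0.05. With 3 arrays a genotype, the smallest p of an exact permutation test is 0.1. Precision is limited by the number of arrays. The fit was tested on simulated data.

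Arrays with the same number deviated together from their genotype's mean across features, with correlations of 0.364, 0.258 and 0.295, and the other pairings lay between -0.0635 and -0.21. The numbers were therefore taken to pair the arrays, from the data and not from the labels, and a fit with the number as a block was an alternative.

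Members and lists were chosen with earlier results of these data known, and lists were described by counts and medians with no test. Genes named are Celf1, in each histone type the 4 members with the smallest unadjusted p, all members described as polyadenylated or testis-specific, and the 3 genes with the smallest unadjusted p of each other pathway list. Hist1h1b, Hist1h1d, Hist1h2ag, Hist1h3c, Hist1h3g, Hist2h2aa2, Hist2h4, Slbp, Npat, Xist and Ddx3y were named outside this rule, after their values were seen, as were the counts over single arrays. The 1 feature past the threshold is not a histone gene and is not reported here. Start regions and current symbols come from RefSeq tables of GRCm38.p6; no genome and no probe sequences were used.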

Additional observations from a re-analysis of the deposited data

How the results depend on the processing

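Of the clustered histone genes 0 passed adjusted p 0.05 under each alternative run. Over all features, where 1 passed, the counts were 2 with scaling to a common median, 2 with detection at the 50th percentile, 2 with an intensity trend in eBayes, 0 with no detection filter, 0 with the mean of all probes, 11 with array weights, and 0 to 1 with single arrays left out. With the replicate block 0 features passed, 1577 had an unadjusted p under 0.05, and the block changed no call of a histone gene. Array weights turned the histone median to 0.054, with 21 genes lower. They were 0.547, 0.439 and 4.25 for knockout 1, 2 and 3, so knockout 3 counted most in the weighted knockout mean. Why the arrays differed in weight was not tested. The adjusted p of Celf1 lay between 0.0085 and 0.328. Without scaling, the median of all features was 0.11, the histone median -0.092 with 32 genes lower, and the H4 median -0.028. The histone median was -0.129 with quantile scaling and -0.130 on the deposited log2 values, with 38 lower in both, and -0.23 with 39 lower after scaling to a common median.

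With single arrays left out, the histone median ran from -0.53 to 0.20, the H1 median from -0.34 to 0.65, and the number of histone genes lower in knockout from 12 to 44, with the ends at 12 and 0.20 reached without knockout 2. Within pairs, added after seeing the data, the histone median was 0.483 in pair 1, with H1 at 0.685, H2a at 0.289, H2b at 0.668, H3 at 0.602, H4 at 0.540 and 5 genes lower. It was -0.959 in pair 2, with H1 at -0.816, H2a at -0.917, H2b at -0.541, H3 at -1.37, H4 at -1.22 and 44 lower, and -0.152 in pair 3, with H1 at 0.403, H2a at -0.241, H2b at -0.328, H3 at -0.151, H4 at 0.218 and 28 lower.

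Differences of genes under the naming rule that turned sign were not past the threshold under any of these settings. Scaling to a common median gave Hist3h2a -0.0065. No scaling gave Hist1h1t 0.060, Hist1h2ac 0.065, Hist2h2aa1 0.0046 and Hist4h4 0.069. Array weights gave Hist1h4i 0.022, Hist1h4c 0.096, Hist1h4k 0.19, Cenpa 0.18, Hist1h2be 0.058, Hist1h2bg 0.38, Hist1h2ac 0.53, Hist2h2be 0.32, Hist3h2ba 0.56 and Hist4h4 0.33. With single arrays left out, 20 of the 46 genes of the naming rule turned sign. Among genes named outside it, Slbp turned to 0.14, Hist1h2ag to 0.16, Hist1h3g to 0.65, Hist2h2aa2 to 0.12 and Hist2h4 to 0.41 without knockout 2. The differences of Hist1h1b and Hist1h3c, positive with all arrays, turned negative with knockout 1 or knockout 3 left out. Ranges for the 20 were -0.093 to 0.62 for Hist1h1e, -0.51 to 0.65 for Hist1h1a, -0.45 to 0.30 for Hist1h1t, -0.17 to 0.29 for Hist1h2bc, -0.47 to 0.12 for Hist2h2be, -0.47 to 0.85 for Hist3h2a and -0.27 to 0.48 for Hist1h2ba. They were -0.61 to 0.064 for Hist1h2ak, -1.45 to 0.14 for Hist2h2bb, -1.46 to 0.064 for Hist1h2bb, -0.96 to 0.37 for Hist2h3c1, -1.30 to 0.44 for Hist1h4i, -0.71 to 0.47 for Hist1h4c and -0.52 to 0.44 for Hist1h4k. They were -1.07 to 0.075 for Nusap1, -0.59 to 0.66 for Hist1h2bg, -0.66 to 0.88 for Hist1h2ac, -1.58 to 0.56 for Hist3h2ba, -0.47 to 0.63 for Hist4h4 and -0.50 to 0.25 for Hist2h2aa1. The number of arrays limits what could be called, and several H2a probes were near the top of the signal range.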
